A study of Mus musculus with 12 samples.

Results

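A set of 10 genes of the Wnt pathway that act in and around the primitive streak were followed through gastrulation in the mouse: the ligands Wnt3, Wnt3a, Wnt5a, Wnt5b, Wnt8a and Wnt11, the target genes Axin2 and Sp5, the potentiator Rspo3 and the secreted inhibitor Dkk1. They are 10 of the 21631 protein-coding genes whose surroundings were measured, and they were named for their roles, with earlier results of these data known. The territory of a gene, as used below, reaches up to 100 kb from its outer ends and stops where another protein-coding gene is nearer. All peaks in those bases were taken from all lists.

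Embryos of the C57BL/6 strain were staged by morphology and dissociated into single cells, and 2 histone marks were profiled with CoBATCH, which uses an antibody to place the transposase Tn5 on chromatin that carries a mark and so tags the DNA. H3K27ac marks active promoters and enhancers, and H3K4me1 marks enhancers whether active or not. No treatment or genetic change is named in the labels. The 6 stages were Pre_PS (before the streak, E6.0), ES (early streak, E6.0 and E6.5), MS (mid-streak, E6.0 and E7.0), LS (late streak, E7.0 and E7.25), OB (no allantoic bud yet, E7.25 and E7.5) and EHF (early headfold, E7.5). Tissue outside the embryo proper was removed at Pre_PS, ES, MS and LS; for OB and EHF this is not stated. Each stage and mark had 1 library with 1 peak list (12 lists in all); without replicates, no difference below carries a test or a p-value. The number of cells and of embryos per library is not given in the sources used here.

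In canonical Wnt signalling a secreted ligand binds Frizzled and Lrp receptors, beta-catenin then escapes destruction, and with TCF/LEF proteins it switches on target genes. Wnt3 in the posterior epiblast and visceral endoderm is needed for the streak to form, and Wnt3a maintains the mesoderm progenitors that the streak later produces. Wnt5a, Wnt5b and Wnt11 act mostly through non-canonical branches that steer cell movement. Axin2 and Dkk1 are targets that feed back to restrain the pathway.

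The RefSeq promoter table of GRCm38.p6, the assembly that mm10 names, held windows for 7 of the 10 members (not Wnt5a, Wnt8a or Rspo3), 10 windows in all, from 250 bases before to 50 after each start site. They were searched on both strands for the letters that TCF/LEF proteins are known to bind, here called TCF/LEF words (the word CTTTGAA, the word CTTTGAT, the word CTTTGTA or the word CTTTGTT), and for the T-box word TCACACC. A TCF/LEF word stood in 5 of the 10 windows, against 16.9% of the 32851 windows in the table, and the T-box word in 0 of 10, against 3.98%. The 5 windows with a word are shown because both the marks and the words bear on them. That of Axin2, the most widely used reporter gene of the pathway, was to be shown with or without a word. Each line gives the 250 bases before the start site, 5′ to 3′ on the gene's strand, and capitals mark a TCF/LEF word read on either strand.
Sp5, chr2:70474673-70474922, plus strand: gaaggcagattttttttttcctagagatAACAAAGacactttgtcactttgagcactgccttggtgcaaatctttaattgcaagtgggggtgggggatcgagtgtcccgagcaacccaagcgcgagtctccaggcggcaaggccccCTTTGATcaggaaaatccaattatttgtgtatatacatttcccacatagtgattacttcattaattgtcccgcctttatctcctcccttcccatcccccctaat
Dkk1, chr19:30549497-30549746, minus strand: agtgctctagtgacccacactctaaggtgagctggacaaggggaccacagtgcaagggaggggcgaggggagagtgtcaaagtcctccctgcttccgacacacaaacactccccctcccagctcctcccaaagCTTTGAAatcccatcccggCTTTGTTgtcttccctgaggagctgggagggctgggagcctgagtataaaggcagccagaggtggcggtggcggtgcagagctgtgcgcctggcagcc
Wnt11, chr7:98834862-98835111, plus strand: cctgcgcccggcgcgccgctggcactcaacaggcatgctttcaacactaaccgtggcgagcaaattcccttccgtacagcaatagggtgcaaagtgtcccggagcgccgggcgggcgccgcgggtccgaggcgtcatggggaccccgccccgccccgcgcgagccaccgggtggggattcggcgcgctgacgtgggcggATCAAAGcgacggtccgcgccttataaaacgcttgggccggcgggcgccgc
Wnt5b, chr6:119449387-119449636, minus strand: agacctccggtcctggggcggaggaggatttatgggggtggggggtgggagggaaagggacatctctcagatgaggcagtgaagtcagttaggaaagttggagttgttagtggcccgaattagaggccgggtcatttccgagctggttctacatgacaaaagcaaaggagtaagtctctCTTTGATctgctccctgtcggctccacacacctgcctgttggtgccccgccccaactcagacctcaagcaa
Wnt3, chr11:103773925-103774174, plus strand: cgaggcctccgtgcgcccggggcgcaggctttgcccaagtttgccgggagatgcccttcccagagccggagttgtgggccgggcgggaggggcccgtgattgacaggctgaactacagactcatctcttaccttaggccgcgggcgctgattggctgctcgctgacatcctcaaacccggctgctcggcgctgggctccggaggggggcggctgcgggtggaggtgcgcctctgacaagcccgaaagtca
Axin2, chr11:108920099-108920348, plus strand: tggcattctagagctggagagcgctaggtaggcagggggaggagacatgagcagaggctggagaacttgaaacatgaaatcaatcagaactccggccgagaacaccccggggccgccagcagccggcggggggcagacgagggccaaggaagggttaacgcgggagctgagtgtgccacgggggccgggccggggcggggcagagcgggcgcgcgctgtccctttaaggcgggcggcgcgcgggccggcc

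Sp5 and Dkk1, a target and a feedback inhibitor, each held 2 words; 1.94% of all windows held 2 or more. Counted from the start site, those of Sp5 began at -222 (on the opposite strand) and -104, and those of Dkk1 at -117 and -98. Wnt11 held 1 word at -51, on the opposite strand. Wnt5b held 1 at -71, before the innermost of its 3 listed start sites. The word of Wnt3 began at 19, past the start site and so outside the line shown. Axin2 held none in this window. A match here is a run of letters and not a measured binding site, and no match says only that these letters are not in this window.

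Most of these start sites were under peaks from the outset. H3K27ac covered the start sites of Sp5, Wnt3, Wnt3a, Axin2 and both start sites of Wnt11 at all 6 stages. The start site of Dkk1 was under H3K27ac at 5 stages, from ES on, and so was the outermost start site of Wnt5b. The innermost start site of Wnt5b was covered at 4 stages, and its middle one at 0. Among the members with no window, the lower-coordinate end of Wnt5a was under H3K27ac at 6 stages and the higher-coordinate end of Rspo3 at 5.

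The lists differed in depth, and Pre_PS stood apart. H3K27ac lists held 13398 to 39635 peaks over 14.3 to 42.1 Mb, and H3K4me1 lists 35646 to 47849 peaks over 23.4 to 51.3 Mb. The local background, read from the weakest peaks of a list in fragments, was 0.0499 at Pre_PS against 0.211 to 0.330 at the 5 later stages for H3K27ac, and 0.0144 against 0.164 to 0.347 for H3K4me1. At Pre_PS, 67.3% of the H3K4me1 peaks sat at the lowest fold of the list, a pileup of 1 fragment. LS had the most H3K27ac peaks and the highest background in both marks. For these reasons a share is used below: the covered bp of a territory per covered Mb of the list. The early stages are ES and MS, the late stages OB and EHF. A gene is called higher late where both late shares lie above both early shares, and lower late in the opposite case. In H3K4me1 early and late also differed in depth. The local background was 0.185 at ES and 0.164 at MS, against 0.329 at OB and 0.240 at EHF. The median fold was 4.42 and 4.56 early and 6.38 and 7.00 late. The part of this depth difference in the H3K4me1 results was not tested.

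Markers of the labelled tissue and of others were read the same way. All 8 epiblast and all 8 primitive streak markers had covered bases in at least 1 list of each mark. So did 17464 of all 21631 genes in H3K27ac and 18418 in H3K4me1, so coverage by itself says little about the tissue. In H3K27ac, streak markers were higher late at 0 and lower late at 3 of 8, and epiblast markers higher at 3 and lower at 2 of 8 (late and early are defined above; over all covered genes 19.9% were higher and 12.6% lower). Of 12 visceral endoderm markers, 8 were covered in H3K27ac, with a summed share of 364 to 380.3 early and 379.8 to 412 late; Afp, Cer1, Rhox5 and Ttr were at 0 in all 6 lists. Of 9 extraembryonic ectoderm and trophoblast markers, 7 were covered, at 802 early and 834 to 919 late in H3K27ac, with Prl3d1 and Tpbpa at 0. Of 9 blood and endothelium markers, 8 were covered, at 524 to 557 early and 536 to 588 late, with Hbb-bh1 at 0. The part of these cell types in the results below was not tested, and fewer cells of a type and less mark per cell cannot be told apart in these lists.

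Over the 10 genes, H3K27ac shares were higher late at 6, namely Wnt5a, Wnt5b, Wnt8a, Wnt11, Axin2 and Dkk1, and lower late at 0. Of the 17464 genes covered in any H3K27ac list, 19.9% were higher late and 12.6% lower late. The sizes were small: the ratio of the late to the early mean ran from 0.854 at Wnt3 to 1.26 at Dkk1. Its median was 0.20 on the log2 scale for the members and 0.05 for all 14711 genes with a ratio. H3K4me1 was higher late at 2 of 10, Wnt3a and Wnt11, and lower late at 0. Over all 18418 genes covered in that mark, 13.9% were higher and 12.8% lower. The late H3K4me1 lists were also deeper than the early ones, as given above. With Pre_PS and ES as the early stages, 7 of 10 were higher late and 0 lower in H3K27ac, against 21.0% and 9.99% of all genes, and 5 and 0 in H3K4me1, against 18.1% and 12.4%. In H3K27ac that kept 5 of the 6 calls, lost Axin2 and added Wnt3 and Rspo3. The H3K27ac count depended on the scale: 2 of 10 were higher late when covered bp were not scaled (Wnt5a and Wnt5b), and 2 of 10 when bases were weighted by the authors' fold (Wnt8a and Dkk1), against 12.1% and 21.1% of all genes. Without 1 narrow region of high fold near Axin2, described below, fold weighting gave 3 of 10, with Axin2 as the third.

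**Figure D1:**
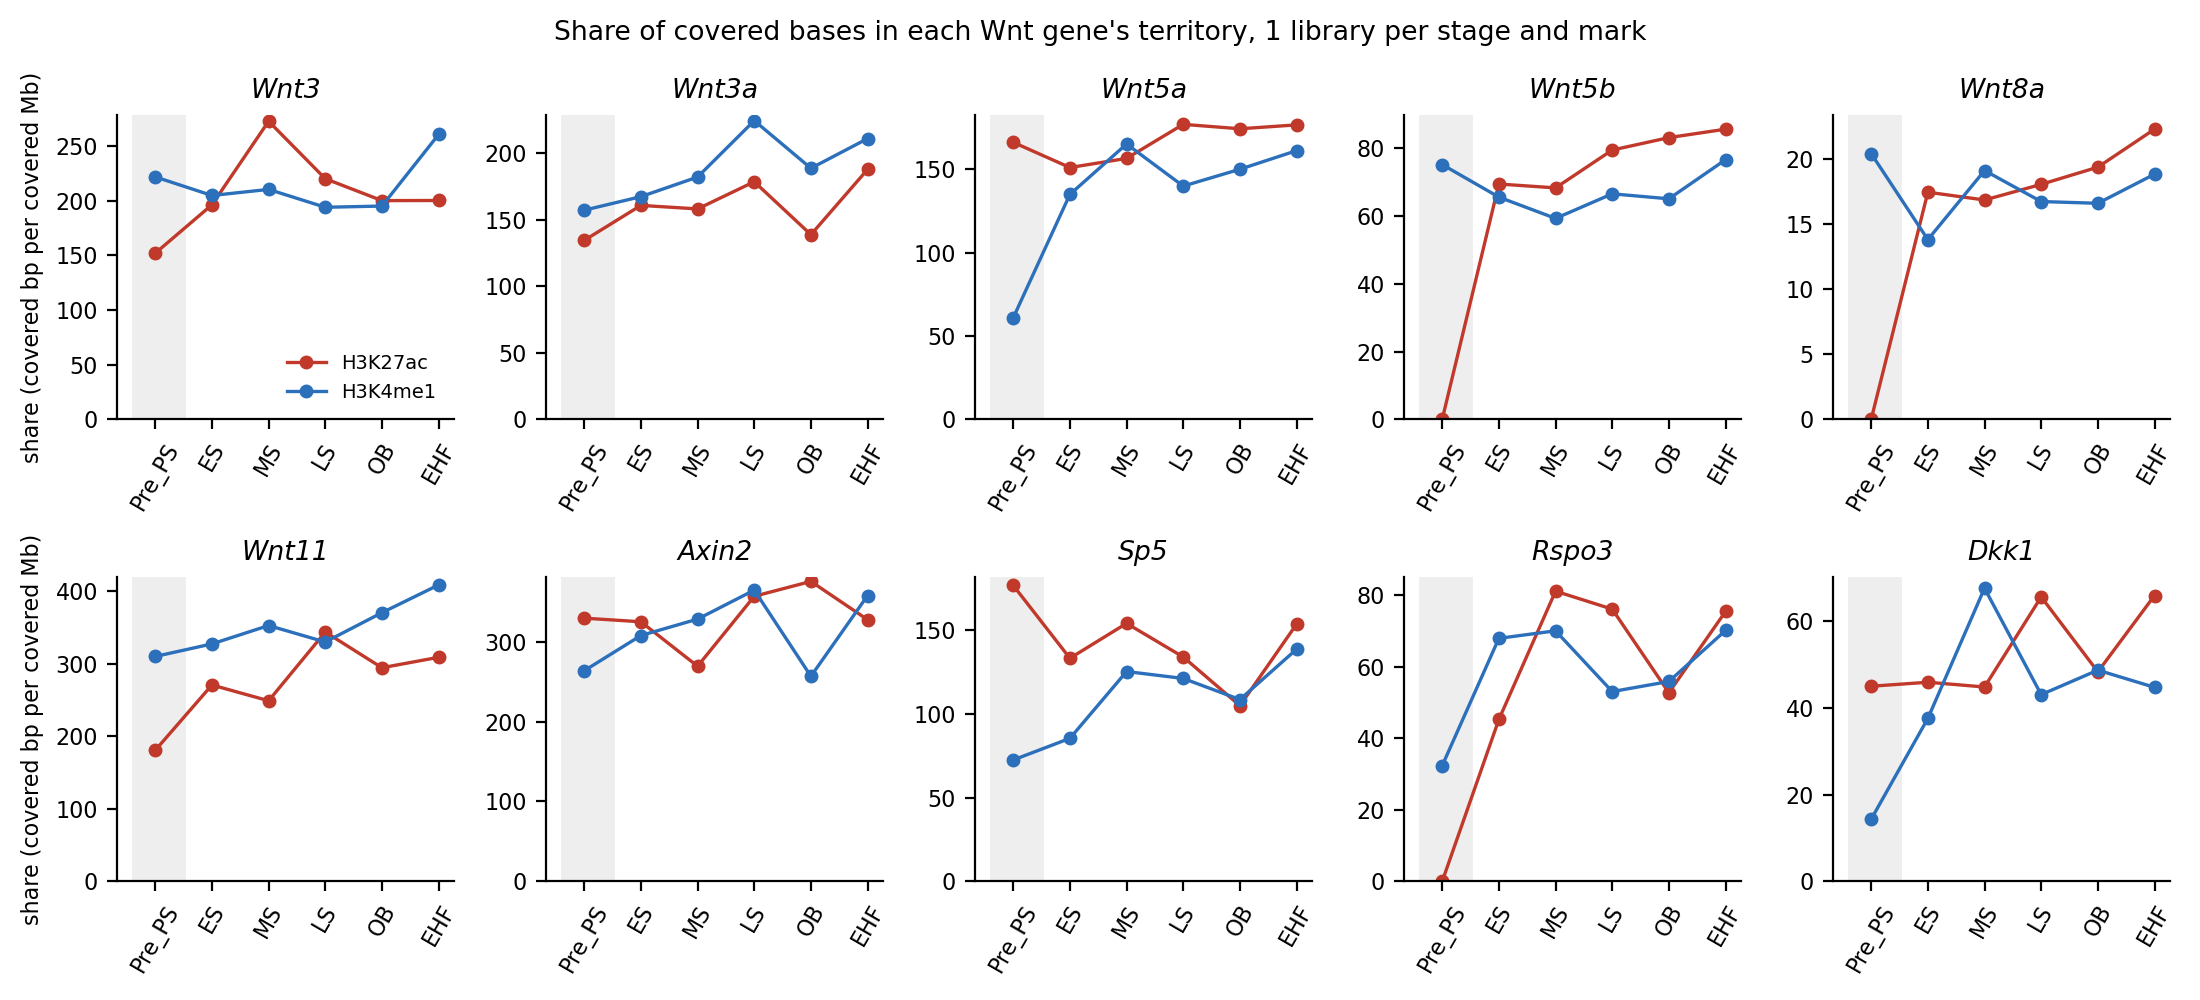
Share of each gene's territory (y axis, covered bp per covered Mb of the list) at the 6 stages (x axis) for H3K27ac and H3K4me1; each point is 1 library and the grey band marks Pre_PS, the shallowest stage. H3K27ac at Wnt3 peaks at MS (273), while Wnt11 has its highest H3K27ac share at LS (344) and its highest H3K4me1 share at EHF (408).

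Wnt3 (chr11:103774175-103818021, plus strand), the ligand that starts the streak, had its highest H3K27ac share at MS. The values were 152, 196, 273, 220.0, 200.0 and 200.1 from Pre_PS to EHF in stage order. Its H3K4me1 shares in the same order were 222, 205, 210.3, 194, 195 and 260.5. In H3K27ac the 2 late values lay between ES and MS, and the late mean was 0.854 of the early mean; without MS the difference of the means was 3.87 bp per Mb, and with MS it was -34.3. The start-site peak was 1206, 2220, 3681, 3689, 1369 and 2017 bp wide in stage order, widest at MS and LS; it lies where Wnt3 overlaps the end of its neighbour Wnt9b, so it cannot be given to one gene alone. A further broad domain lay inside the gene, chr11:103807890-103812997, centred 36.3 kb from the gene's start. It held 960 bp of H3K27ac at Pre_PS and 4899 to 4978 bp at ES, MS, OB and EHF, with 5010 bp at LS. This domain gave the widest EHF peaks of the gene, 4.92 kb in H3K27ac and 5.16 kb in H3K4me1. A narrower region inside the gene, chr11:103815984-103816489, held 452 bp of H3K27ac at ES and 356 bp at MS and none at the other 4 stages. At ES its fold was the lowest of the list, 3.17.

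Wnt3a (chr11:59248036-59290751, minus strand), the ligand of paraxial mesoderm progenitors, was level in H3K27ac and higher late in H3K4me1. H3K27ac shares were 135, 161, 158, 179, 139 and 188, and the OB value lay below both early values. H3K4me1 shares were 157, 167, 182, 225, 189 and 211, with the highest at LS, and the lower late value lay 6.60 bp per Mb above the higher early one. The difference in H3K4me1 means was 25.1, or 14.0 without EHF. Of its 6 H3K27ac regions, 5 lay inside the gene and 0 outside, while 4 of its 11 H3K4me1 regions lay outside. The start-site H3K27ac peak was 4052 bp wide at ES and 2386 bp at EHF, while the H3K4me1 peak there was 4128 and 4008 bp. At EHF these were the widest peaks of the gene in both marks.

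Wnt5a (chr14:28504543-28527448), which guides convergent extension and axis elongation, had H3K27ac shares of 166, 151, 156, 177, 174 and 177. The 5 later values lay within a 1.17-fold range, and the late values lay 17.8 bp per Mb above the early ones. H3K4me1 shares were 60.9, 135, 165, 139.9, 150.0 and 161, and the late and early values overlapped. The peak at the lower-coordinate end was 3276 bp wide in H3K27ac at ES and 3334 bp at EHF, the widest of the gene there. The widest H3K4me1 peak at EHF lay at the same end, 3376 bp. A region beyond the other end, chr14:28620413-28621450, 93.0 kb away, had H3K27ac at LS only and H3K4me1 at Pre_PS, MS, LS and OB.

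Wnt5b (chr6:119432531-119544824, minus strand), a close relative of Wnt5a, had no H3K27ac peak in its territory at Pre_PS. Its later H3K27ac shares were 69.4, 68.3, 79.4, 83.1 and 85.6, and the late values lay 13.7 bp per Mb above the early ones. H3K4me1 shares were 75.1, 65.5, 59.3, 66.5, 65.0 and 76.6, where OB lay just below ES. The gene overlaps Fbxl14 and Gm52875, and the H3K27ac peak at its outermost start site, 997 to 1425 bp wide from ES on, falls largely in the territory of Gm52875. What the share counts are mainly 3 regions toward the far end of the gene, each present in both marks at all 5 later stages. In H3K27ac they were centred 96.2, 104.3 and 111.1 kb from the outer end on its 5′ side. The region at 96.2 kb includes the innermost start site, which was under H3K27ac at 4 stages and under H3K4me1 at 2. The widest EHF peaks there were 1554 bp in H3K27ac and 1547 bp in H3K4me1.

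Wnt8a (chr18:34542327-34548061), a streak ligand, had 1 narrow region in either mark, next to its higher-coordinate end. Its H3K27ac shares were 0, 17.5, 16.9, 18.1, 19.4 and 22.3. Its H3K4me1 shares were 20.4, 13.8, 19.1, 16.8, 16.6 and 18.9. In H3K27ac the late values lay 1.93 bp per Mb above the early ones, and the difference in means was 3.69, or 2.23 without EHF; the peak was 724 bp at ES and 808 bp at EHF. At EHF its H3K27ac fold, 17.7, exceeded that of 82.5% of the peaks in the list, though its width exceeded that of only 50.1%.

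Wnt11 (chr7:98835084-98854747, plus strand), which acts in cell movement and in heart-forming mesoderm, had the most distal peaks of the ligands. H3K27ac shares were 181, 271, 249, 344, 294 and 309. H3K4me1 shares were 309.8, 327, 352, 329.8, 370.2 and 408. Late values lay above early ones in both marks, by at least 23.8 and 17.7 bp per Mb. In H3K27ac the difference turned to -6.58 bp per Mb when the same number of peaks was taken from each list, and to -0.918 when bases were weighted by fold. In H3K4me1 it was 49.5, or 30.4 without EHF; it turned to -0.280 in the strongest 50% of each list, and the call was also lost with unscaled bases and with LS added to the late stages. Of its 16 H3K27ac regions, 11 lay outside the gene and 5 were present at all 5 later stages. Of the 16 regions, 2 were seen at both late stages and at neither early stage. The first, chr7:98797842-98798308, lay 36.8 kb before the gene and held 304 bp at LS, 308 bp at OB and 425 bp at EHF. It had H3K4me1 from ES on, 360 bp at ES and 467 bp at MS. The second, chr7:98824372-98824909, lay 10.2 kb before the gene and held 538, 445 and 389 bp at LS, OB and EHF. H3K4me1 was there already at Pre_PS, 295 bp, and was gone at EHF. At the start of the gene, H3K27ac formed separate peaks over the 2 start sites from Pre_PS to OB, 1598 and 1854 bp wide at OB. At EHF they were a single peak of 5002 bp, while H3K4me1 covered both with 1 peak of 4844 to 5021 bp from ES on (4861 bp at EHF).

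**Figure D2:**
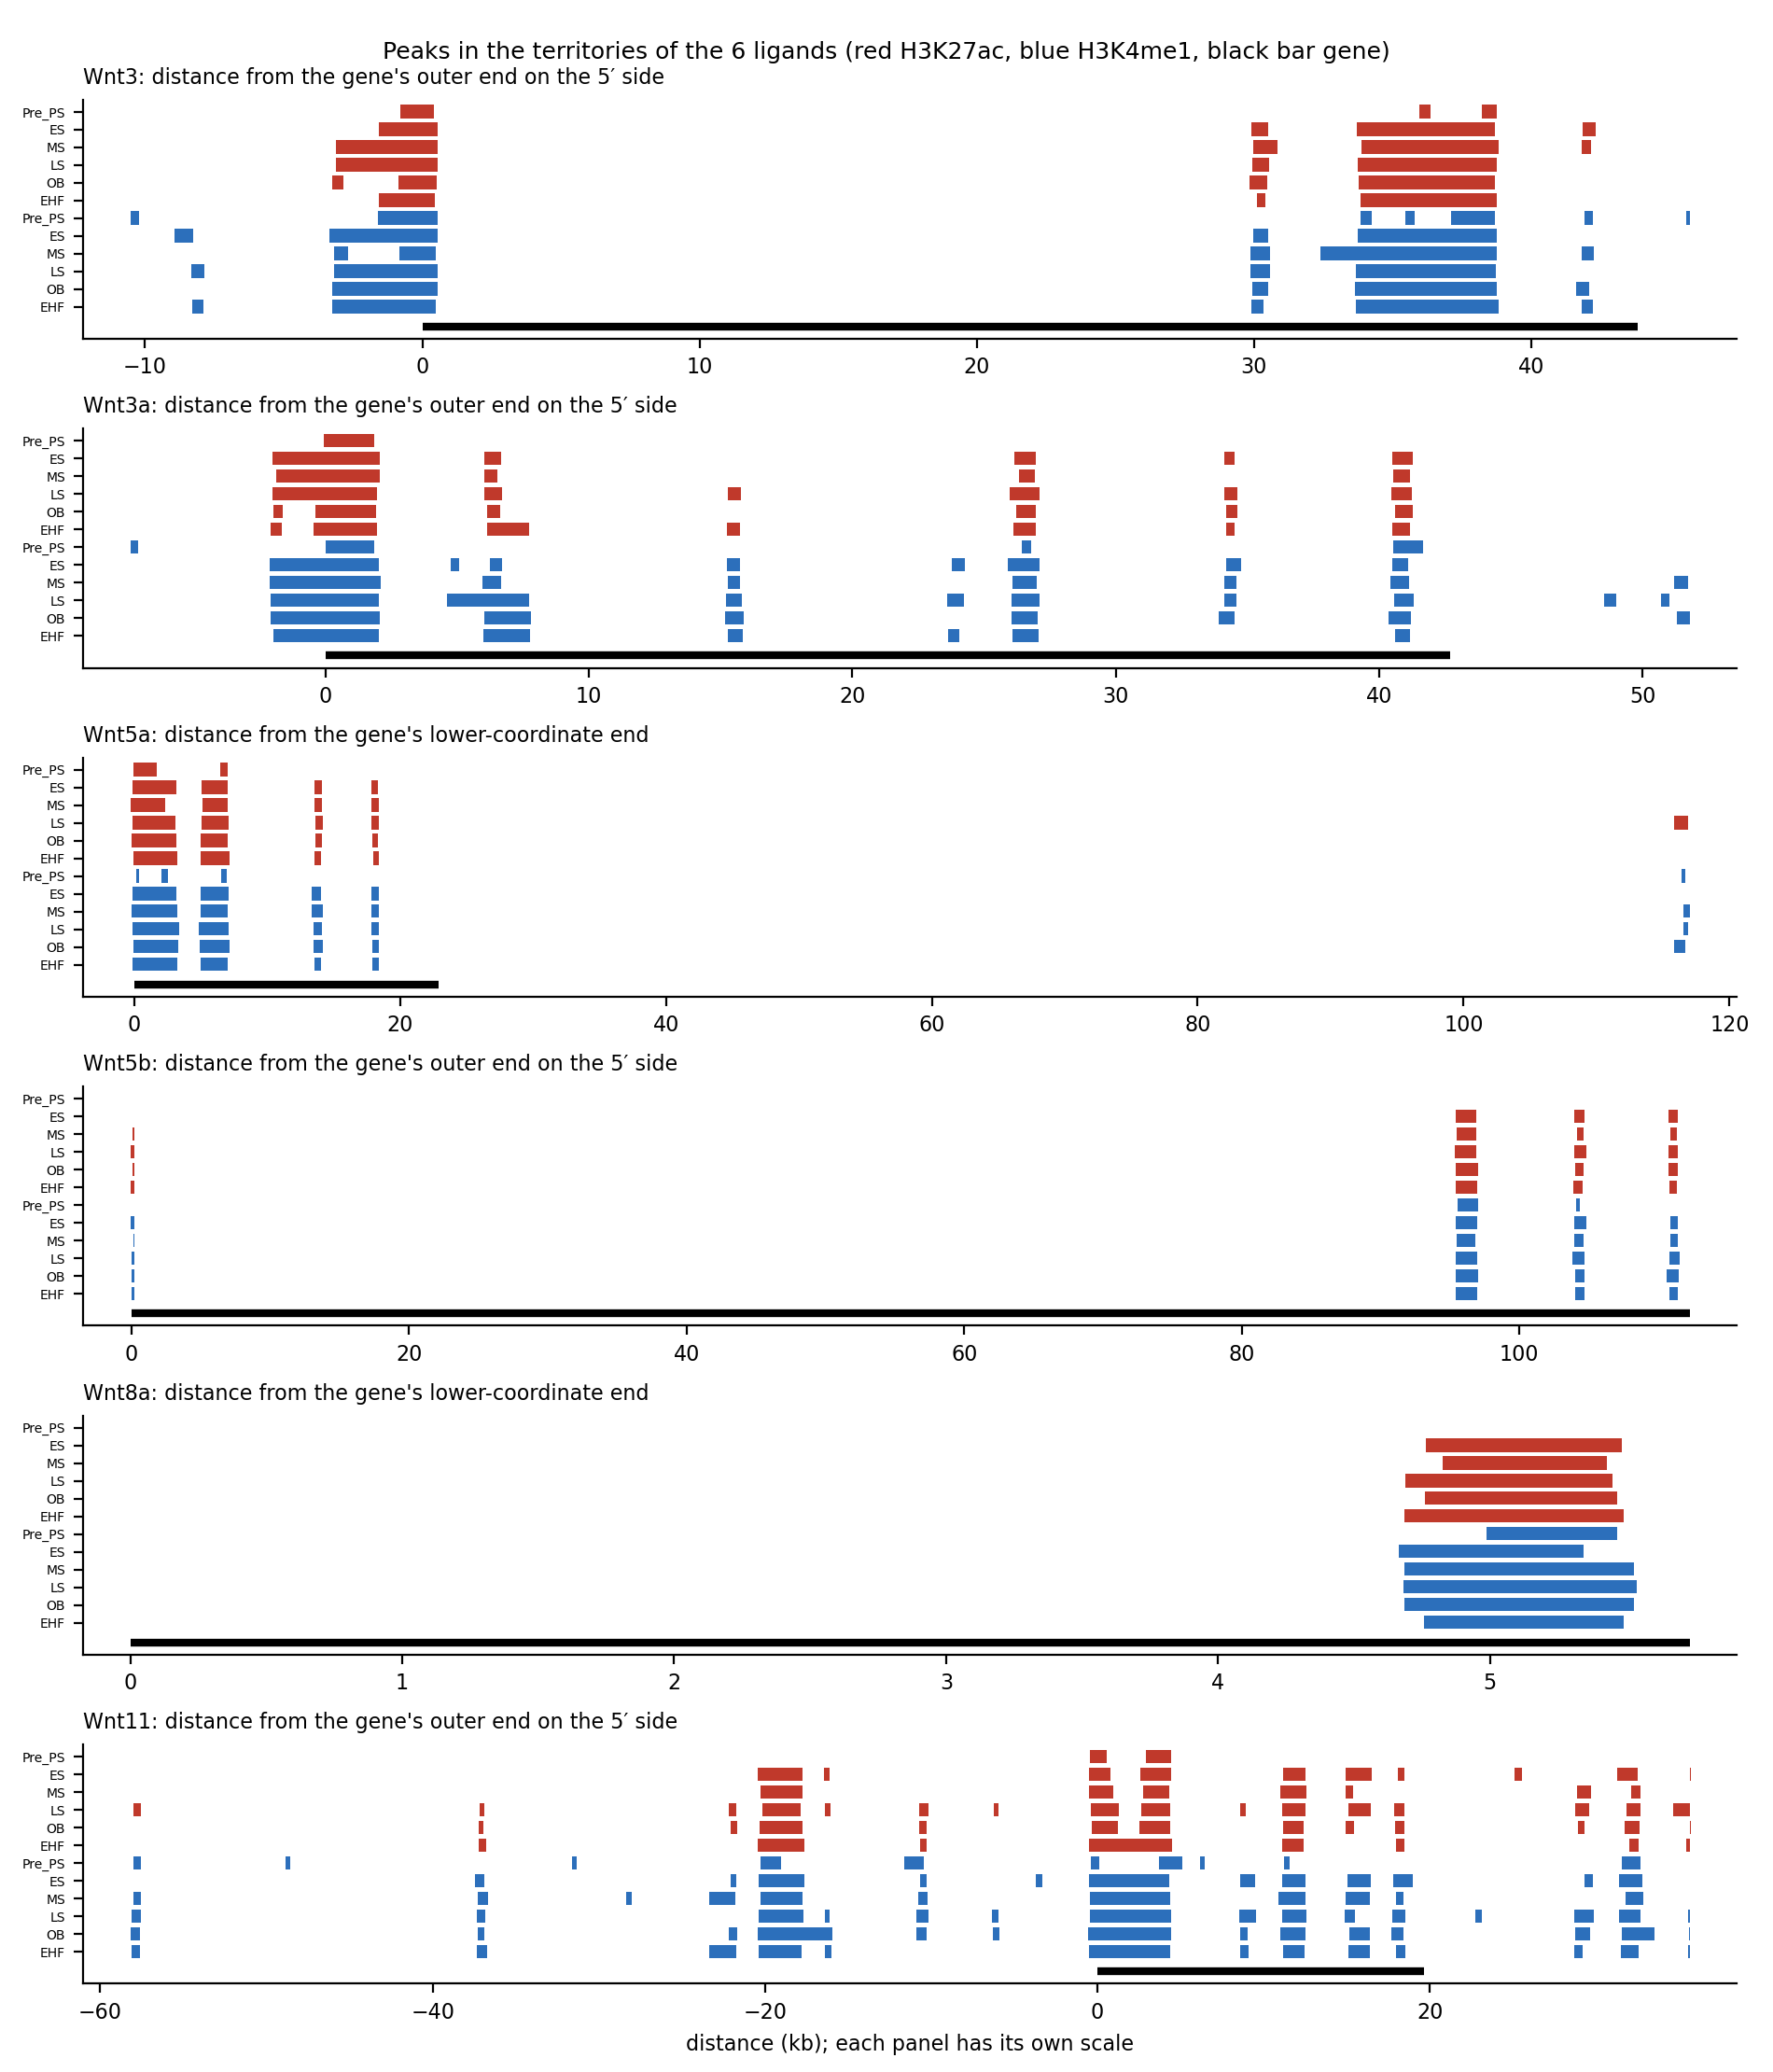
Peaks of the 6 ligand genes by stage and mark; the x axis is the distance in kb from the gene's outer end on its 5′ side (from the lower-coordinate end for Wnt5a and Wnt8a), each row is 1 list and the bar under the rows is the gene. Each bar is a peak clipped to the gene's territory; the 2 upstream Wnt11 regions with H3K27ac from LS on lie 36.8 and 10.2 kb before the gene.

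Axin2 (chr11:108917828-108950783, plus strand), which rebuilds the complex that destroys beta-catenin and so damps the pathway, had the largest H3K27ac share of the members at every stage but MS, where Wnt3 was higher. H3K27ac shares were 329.6, 325, 269, 357, 376 and 328. H3K4me1 shares were 264, 308, 328, 365, 257 and 358. In H3K27ac the lowest late value, at EHF, lay 2.61 bp per Mb above the ES value, and with Pre_PS and ES as the early stages the call was lost. The difference in means was 54.4 bp per Mb, 26.6 without MS, 30.4 without OB and 82.2 without ES. In H3K4me1 the OB value was the lowest of all 6. The peak over its start site was 3615 bp at ES and 3128 bp at EHF, the widest H3K27ac peak of the gene at that stage. With a fold of 29.9 it stood above 97.7% of the EHF list. The widest H3K4me1 peak at EHF lay farther inside the gene and spanned 3905 bp. Of its 13 H3K27ac regions 6 lay inside the gene and 6 outside. An H3K4me1 region inside the gene, chr11:108945872-108947402, held 1263 bp at ES, 1329 bp at MS and 443 bp at LS and none at OB and EHF; its MS fold was the lowest of the list.

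A narrow region in the Axin2 territory had a fold far above the rest. It lay at chr11:109011553-109012136, 60.8 kb past the end of the gene. Its H3K27ac fold was 26.5, 169, 125, 101, 89.0 and 75.3 in stage order, against list medians of 3.91 to 6.97, and only 1 to 3 peaks of each list were higher. In H3K4me1 the fold was 17.9 to 96.5. The unweighted counts of genes higher or lower late were the same without it in both marks. Weighting by fold turned the H3K27ac difference of Axin2 from 54.4 to -34.3 bp per Mb with this region and gave 53.7 without it. Whether the region is an artifact of mapping could not be checked here and was not tested.

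Sp5 (chr2:70474923-70477726, plus strand), a transcription factor switched on directly by Wnt, had 1 wide domain over its start. H3K27ac shares were 177, 133, 154, 134, 105 and 154. H3K4me1 shares were 72.6, 85.5, 125, 121, 109 and 139. The late and early values overlapped in both marks, and OB had the lowest H3K27ac value. The H3K27ac peak over the start site was 2522 bp at Pre_PS, 5525 bp at ES, 5538 bp at MS and 5653 bp at LS. At OB it was 3252 bp, with a separate peak from -3113 to -2545 bp counted from the start site. At EHF it was 5565 bp, wider than 99.1% of the EHF list. The H3K4me1 peak at EHF was 5423 bp. H3K4me1 did not reach the start site at Pre_PS, and it spanned 3378 bp there at ES and 5550 bp at MS. The domain includes the promoter shown above with its 2 TCF/LEF words.

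Rspo3 (chr10:29453106-29535867), whose protein potentiates Wnt by keeping receptors on the cell surface, had its widest peaks at the higher-coordinate end; 1 of its 2 H3K27ac regions (at LS alone) and 2 of its 3 H3K4me1 regions lay outside the gene. H3K27ac shares were 0, 45.2, 81.0, 76.0, 52.7 and 75.4. H3K4me1 shares were 32.3, 67.9, 70.0, 53.0, 55.8 and 70.1. The groups overlapped in both marks, and the H3K27ac values of the 5 later stages spanned a 1.79-fold range without an order in time. The peak at that end was 1873 bp at ES, 2910 bp at MS, 1917 bp at OB and 2728 bp at EHF in H3K27ac. In H3K4me1 it was 2720 to 2847 bp at all 5 later stages (2738 bp at EHF).

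Dkk1 (chr19:30545876-30549496, minus strand), which blocks the Lrp co-receptors, had H3K27ac shares of 45.0, 46.0, 44.9, 65.6, 48.4 and 66.0. H3K4me1 shares were 14.3, 37.6, 67.7, 43.1, 48.7 and 44.8. The late H3K27ac values lay 2.41 bp per Mb above the early ones, and in H3K4me1 the groups overlapped, with MS highest. The Pre_PS value of H3K27ac came from 1 region 94.7 kb from the gene that was seen at no later stage. From ES on, 2 regions were present at every stage in both marks: the start site and chr19:30539176-30540172, 5.70 kb beyond the gene's far end. The difference in H3K27ac means was 11.8 bp per Mb, 2.96 without EHF and 20.6 without OB. At the start site the H3K27ac peak was 1003 bp wide with a fold of 5.54 at ES, and 1150 bp with a fold of 9.32 at EHF. The widest H3K4me1 peak at EHF was 1002 bp, at the same place.

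**Figure D3:**
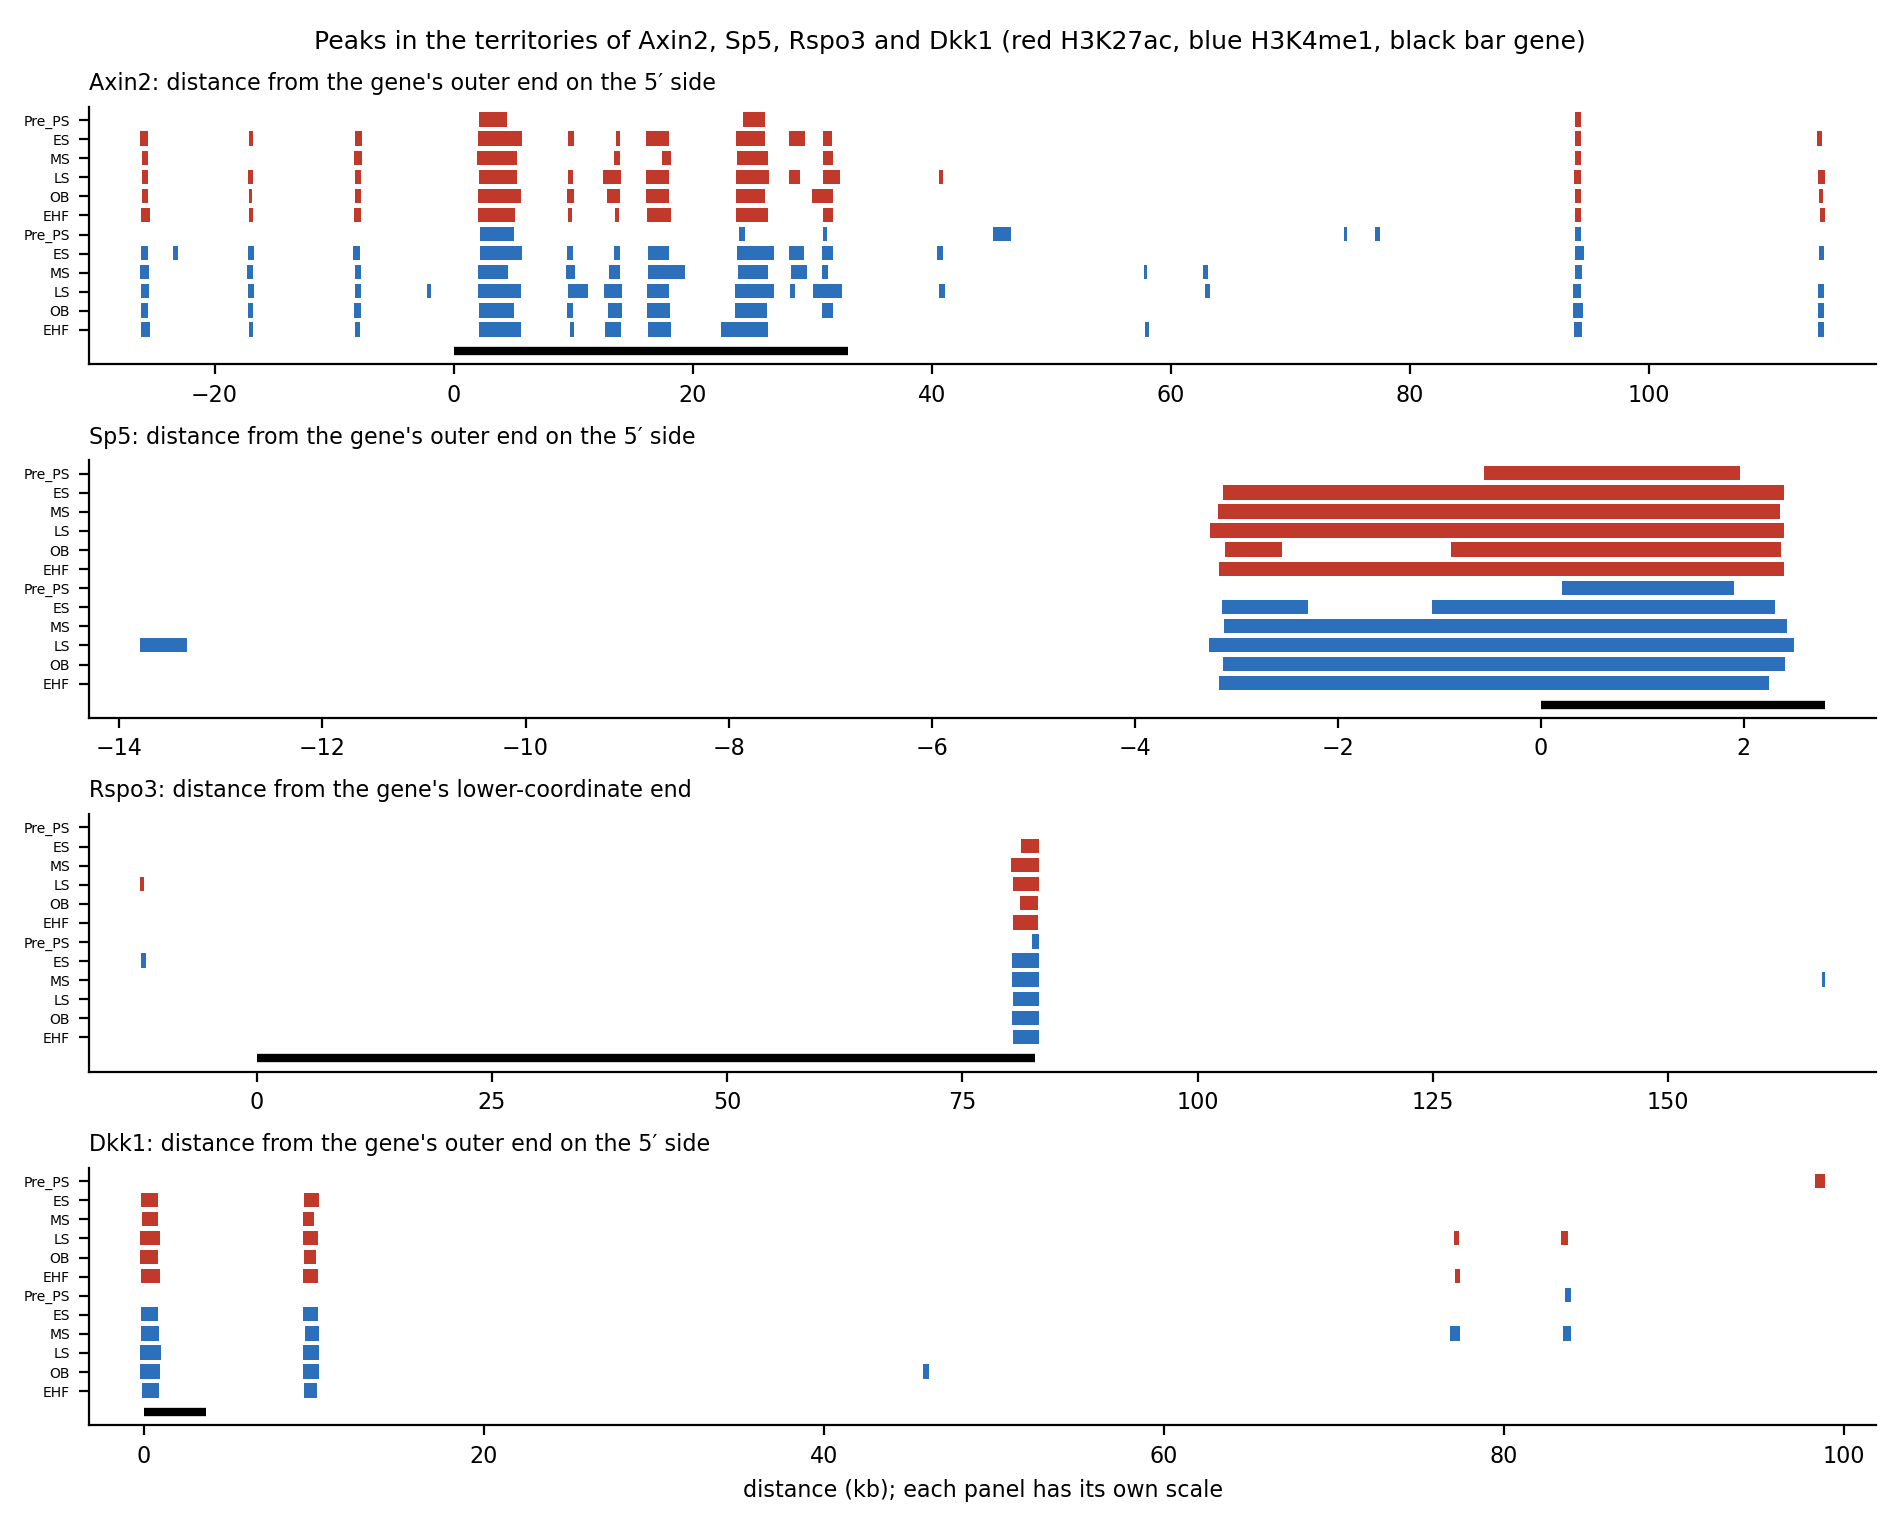
Peaks of Axin2, Sp5, Rspo3 and Dkk1 by stage and mark; the x axis is the distance in kb from the gene's outer end on its 5′ side (from the lower-coordinate end for Rspo3), each row is 1 list and the bar under the rows is the gene. Sp5 shows H3K27ac over its start in all 6 lists, narrower at Pre_PS and split into separate peaks at OB. Axin2 shows a row of peaks inside the gene plus the narrow region 60.8 kb past its end.

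In order of the H3K27ac share at EHF the members ran Axin2, Wnt11, Wnt3, Wnt3a, Wnt5a, Sp5, Wnt5b, Rspo3, Dkk1 and Wnt8a. At ES the order was Axin2, Wnt11, Wnt3, Wnt3a, Wnt5a, Sp5, Wnt5b, Dkk1, Rspo3 and Wnt8a, so only Rspo3 and Dkk1 changed places. With 1 library per stage, the spread between libraries of a stage is unknown, and neighbours in this order cannot be told apart. The territories differed in size, from 22.7 kb at Wnt8a to 228 kb at Rspo3, so the order compares territories and not levels per length.

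**Figure D4:**
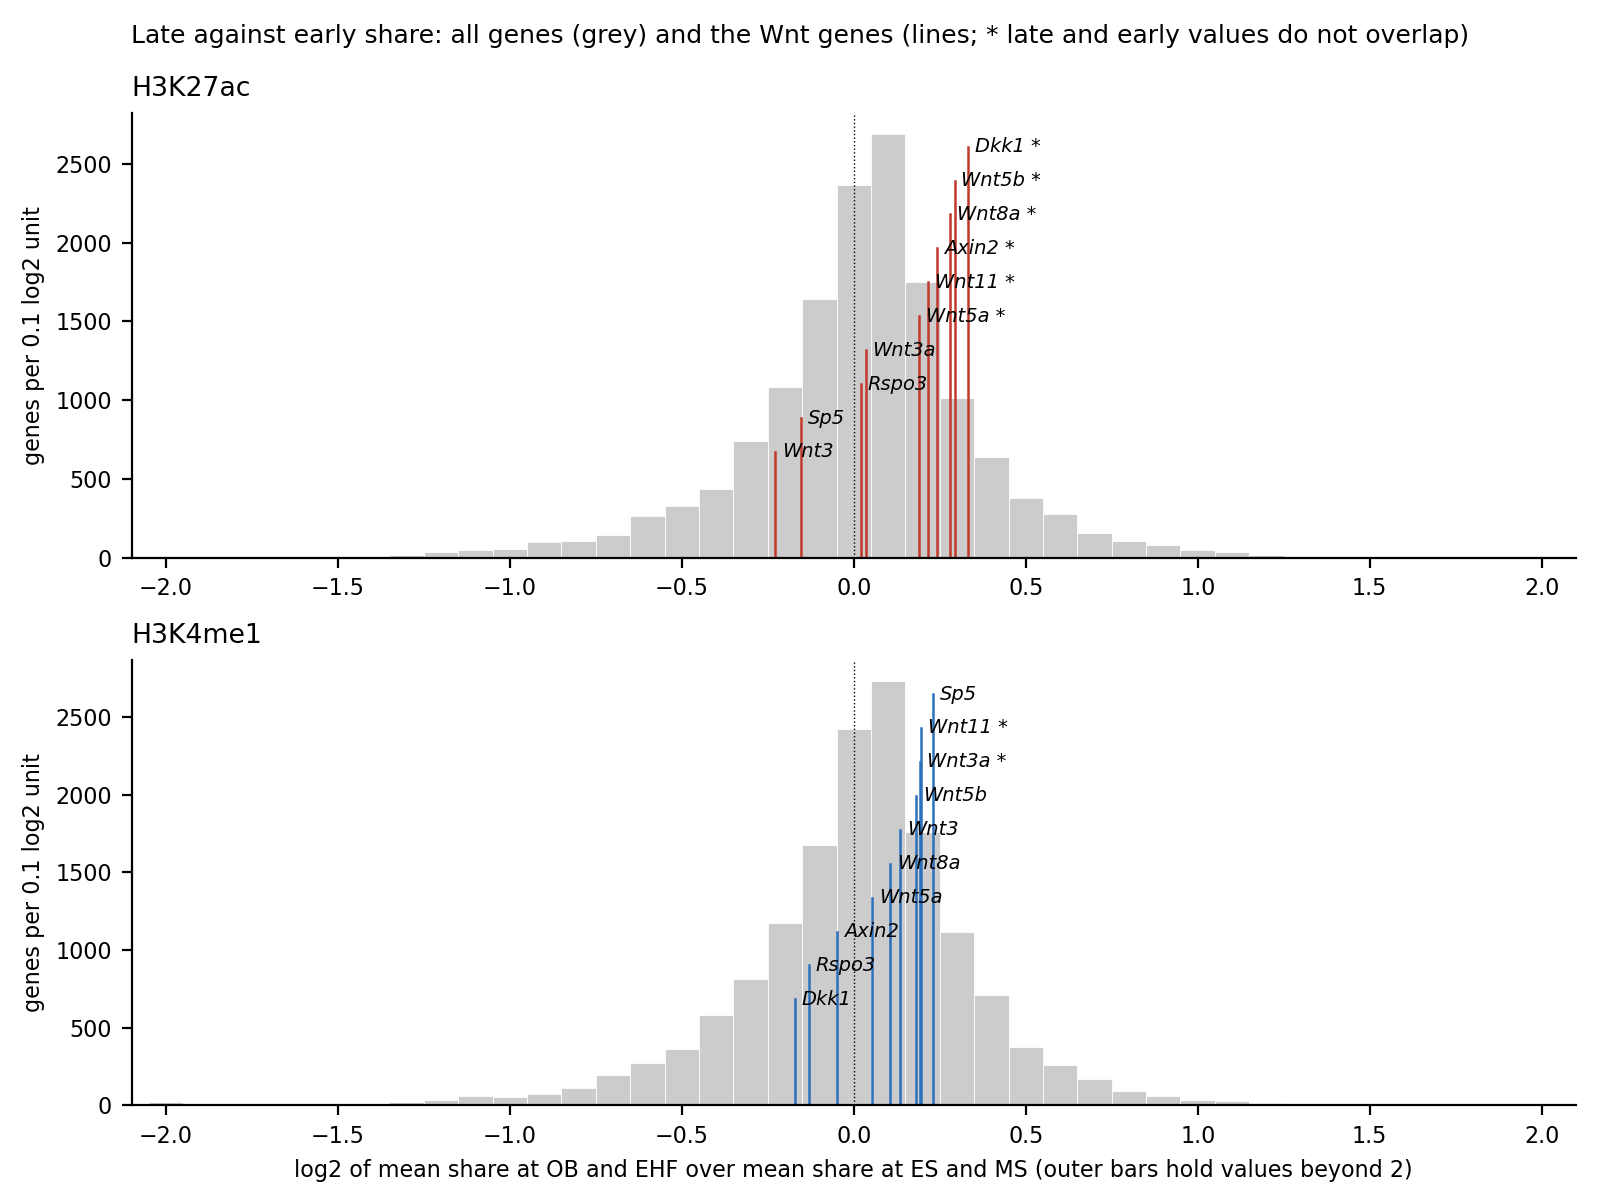
Log2 of the mean share at OB and EHF over the mean at ES and MS (x axis) for all genes with a ratio (grey bars, number of genes per 0.1 log2 unit) and for the Wnt genes (lines; an asterisk marks genes whose late and early shares do not overlap). The members lie near 0 in both marks, between Wnt3 (-0.23) and Dkk1 (0.33) in H3K27ac; without MS the late mean of Wnt3 lies above the early value, and without EHF the difference of Dkk1 shrinks from 11.8 to 2.96 bp per Mb.

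Peaks of a mark were merged over the 6 stages to follow single regions. The 10 territories held 56 H3K27ac regions, of which 32 (57.1%) were present at all 5 later stages, against 43.5% of all 51619 regions. They held 75 H3K4me1 regions, of which 36 (48.0%) were present at all 5 later stages, against 35.0% of all 77300. The shares differed by position. A region was at a gene end if it came within 1 kb of either outer end of the gene, whether or not a start site lay there. The start-site region of Axin2 thus counted as inside the gene, and regions near the far ends of Axin2 and Wnt5b counted as gene ends. All 10 H3K27ac regions at a gene end were present at all 5 later stages, as were 15 of 23 inside a gene and 7 of 23 outside. For H3K4me1 the counts were 10 of 11, 18 of 24 and 8 of 40. Regions at gene ends were also wider, with a median of 3248.5 bp in H3K27ac against 538 bp outside genes. Of the 9 H3K27ac regions seen at 1 stage, 7 were seen at LS, the list with the most peaks. Counts by position, and of regions seen at LS alone, are not given here over all regions. Whether these patterns are particular to the Wnt genes was therefore not tested.

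Few regions came or went. Gained regions, seen at both late stages and at neither early stage, numbered 2 of 56 in H3K27ac, both at Wnt11, and 0 of 75 in H3K4me1. Over all regions 2.38% and 1.23% were gained. Lost regions numbered 1 in each mark, the Wnt3 and Axin2 regions given above, against 2.28% and 2.32% of all regions. Both lost regions were absent from the count once peaks at the lowest fold of their list were left out.

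The order of the marks was read at each H3K27ac region over ES to EHF, with Pre_PS left out. A region with H3K27ac at ES could thus not be counted as having H3K4me1 earlier. H3K4me1 at Pre_PS was not counted, though it was present at the Wnt8a region, for example (479 bp). Of the 55 member regions with H3K27ac at ES to EHF, H3K4me1 was seen earlier at 12 (21.8%), at the same stage at 40 (72.7%), later at 2 and never at 1, against 18.6% earlier and 66.2% at the same stage over all regions. Of the 13 member regions whose H3K27ac was first seen after ES, 12 (92.3%) had H3K4me1 at an earlier stage and 1 at the same stage; 7 of these 13 had H3K27ac at LS alone. Over all 13980 such regions the values were 66.8% earlier, 9.74% at the same stage, 6.77% later and 16.7% never. Of the 75 H3K4me1 regions, 23 (30.7%) had H3K27ac at no stage, against 40.1% of all. Without regions seen at Pre_PS alone this was 15 of 67 (22.4%), against 27.9% of all. Among the 36 H3K4me1 regions present at all 5 later stages this number was 0, against 0.511% of all. The H3K4me1 lists held more peaks than the H3K27ac list of the same stage at all 6 stages, and the part of that difference was not tested.

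From ES on, most H3K27ac bases also lay under H3K4me1 of the same stage, and the reverse was less complete. In the 10 territories, the percentage of H3K27ac bases that were also under H3K4me1 was 59.8, 91.5, 90.1, 91.8, 95.4 and 92.3 from Pre_PS to EHF. Over all territories it was 47.7, 84.2, 84.4, 89.9, 92.6 and 85.0. At Sp5 it was 76.3 at ES, where the H3K4me1 peak was still narrower than the H3K27ac peak, and 99.0 at MS. In the reverse direction, the percentage of H3K4me1 bases under H3K27ac in the 10 territories was 35.1, 76.9, 68.0, 80.1, 69.8 and 78.4. Over all territories the reverse values were 30.7, 71.3, 69.0, 74.2, 67.1 and 79.0, above the 10 territories at MS and EHF. The 2 marks come from separate libraries of the same stage, and the low Pre_PS values belong to the shallowest lists.

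**Figure D5:**
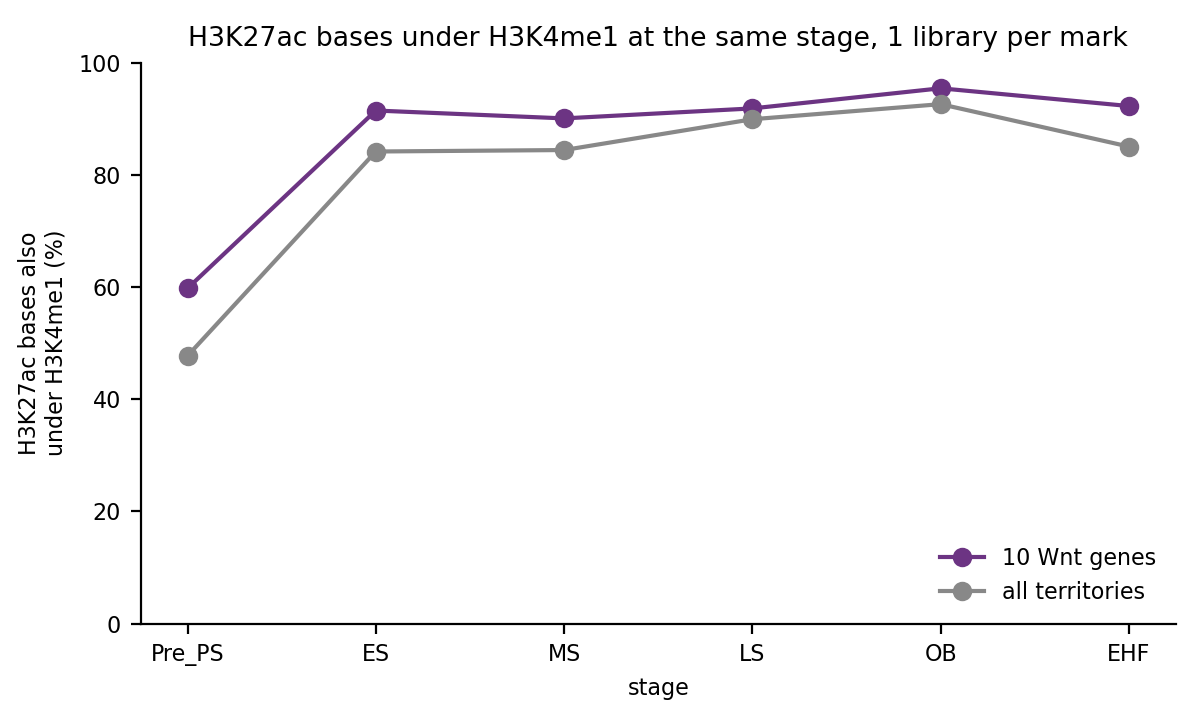
Percentage of H3K27ac bases that were also under H3K4me1 at the same stage (y axis) by stage (x axis), in the territories of the 10 Wnt genes and in all territories; each point compares 1 library of each mark. Both lines are lowest at Pre_PS (59.8% and 47.7%), and the Wnt genes lie above all territories at every stage.

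The rest of the pathway was read from 78 other Wnt pathway genes, of which 77 were covered. In H3K27ac 21 were higher late and 3 lower late, and in H3K4me1 16 and 6; the backgrounds are those given for the members. By role, H3K27ac was higher late at 7 of 15 receptors, 3 of 13 other ligands, 4 of 12 covered secreted inhibitors, 3 of 15 transduction genes, 3 of 12 other targets and 1 of 10 genes of ligand release and the R-spondin branch. It was lower late at 2 genes of the R-spondin branch and 1 transduction gene. These counts depended on the early stages: with Pre_PS and ES, receptors were higher at 1 and lower at 2, other ligands higher at 6 and lower at 1, and the 78 genes together higher at 15 and lower at 4.

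Among those called in H3K27ac, the largest increases in share were at Wnt4, Nkd1 and Wnt9a. Wnt4, a ligand, had 325 and 186 early and 329 and 334 late. Nkd1, a feedback inhibitor inside the cell, had 172 and 155 early and 220.3 and 244 late. Wnt9a, a ligand, had 245 and 340.2 early and 368 and 349 late. The genes lower late were Lgr6 (147.4 and 147 early, 107 and 106 late), a receptor for R-spondins, Rspo1 (114 and 117, then 107 and 94.3), an R-spondin, and Pygo2 (117 and 99.9, then 98.7 and 98.0), a beta-catenin cofactor.

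In H3K4me1 the largest increases were at Wnt7b, Bcl9 and Kremen1. Wnt7b, a ligand, had 554 and 553 early and 631 and 679 late. Bcl9, which links beta-catenin to Pygo proteins, had 75.8 and 96.5 early and 103 and 139 late. Kremen1, a Dkk receptor, had 138.0 and 137.6 early and 167 and 176 late. The largest decreases were at Lef1 (176 and 232 early, 147 and 144 late), a TCF/LEF factor, Rspo4 (35.7 and 65.8, then 28.6 and 22.4), and Notum (86.7 and 126, then 84.5 and 86.6), which inactivates Wnt ligands.

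For each member the gene with the most similar course was found among 14532 genes covered in all 10 lists of the 5 later stages, by Pearson's r over those lists after each mark was divided by its own mean. These were Bhlhe40 for Wnt5a (0.983), Lck for Wnt11 (0.982), Dctn3 for Sp5 (0.977), Hes7 for Wnt5b (0.964), Thap1 for Rspo3 (0.960) and Uckl1 for Wnt3 (0.958). They were Me3 for Dkk1 (0.950), Gpr4 for Wnt8a (0.949), Snx22 for Wnt3a (0.948) and Ttc22 for Axin2 (0.903). The points share libraries and depth, and the highest of so many values is high by selection. No member was the most similar gene of another.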

How the data were processed

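Single-cell suspensions of staged embryos were profiled for H3K27ac and H3K4me1. The tools named by the submitters' processing notes are MACS2, Bowtie2, deepTools and Picard, with mm10 as the build. Tool settings, tool versions and the merging of cells were not given in the sources used here. Each deposited file is a list of broad peaks for 1 stage and mark. The deposited fold of a peak is the authors' ratio over the local background and was used only to describe or weight peaks. The authors also deposited a −log10 p-value and a −log10 q-value per peak, and the latter ranked peaks within a list. The deposited score was left aside. Single-cell values were not analysed here. Depth was read from the lowest fold and −log10 p of each list, as the pileup and background that give both values under a Poisson model with 1 added to each.

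Peaks on chromosomes 1 to 19 and X were intersected with territories of the 21631 genes that RefSeq lists as protein-coding on GRCm38.p6. A gene or region was called only by the order of ES, MS, OB and EHF; with 1 library each no test was made, and depth limits what is not seen, above all at Pre_PS. Regions were merged over stages and were present where a peak overlapped by at least 1 bp. The members and all lists were chosen with earlier results of these data known. All 10 members were named; further named were the most correlated gene of each, per mark the 3 other pathway genes with the largest differences each way among those called, every gained or lost region, the widest EHF peak per mark, and the promoters with a TCF/LEF word plus those of Sp5 and Axin2. The counting was tested on simulated data. Alternatives were early stages Pre_PS and ES, stronger peaks, no peaks at the lowest fold, equal numbers of peaks, 50 kb territories, unscaled or fold-weighted bases, other overlaps and leaving out each stage; 3 more (without the narrow region near Axin2, the same with fold weighting, LS as a late stage) were chosen after seeing the data. Python 3.11.15, NumPy 2.4.6, pandas 2.3.3, SciPy 1.17.1 and Matplotlib 3.10.9 were used.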

Additional observations from a re-analysis of the deposited data

How the results depend on the processing

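No paired analysis was possible because each stage and mark has 1 library. Of 10 genes, H3K27ac was higher late at 6 and lower late at 0. With the strongest 50% of each list 1 was lower late (Wnt3a), against 11.6% of all genes. With lists cut to equal peak numbers 4 were higher, without Wnt5b and Wnt11, and 1 lower (Wnt3), against 23.9% and 11.9%. With unscaled bases 2 were higher and 1 lower (Wnt3), against 12.1% and 20.1%. Fold weighting gave 2 higher and 2 lower (Wnt3 and Wnt3a), against 21.1% and 17%. It gave 3 and 2 without the narrow region near Axin2, against the same percentages. These lower counts were near or below the percentages over all genes. Leaving out 1 stage gave 6 to 8 higher and 0 to 3 lower, the 3 being Wnt3, Sp5 and Rspo3 without ES, against 31.5% to 44.1% higher and 21.8% to 34.8% lower over all genes. H3K4me1 was higher late at 2 and lower late at 0. It was higher at 5 with Pre_PS and ES as the early stages and at 1 with the strongest 50% (Axin2, not Wnt3a or Wnt11). It was higher at 0 unscaled and at 1 with LS added to the late stages (Wnt3a). Over all genes these were 18.1%, 11.5%, 10.7% and 8.38%. It was lower at 2 unscaled, against 15.7% of all genes, and at 3 with fold weighting, against 17.7%. With fold weighting but not the region near Axin2, 4 were higher and 2 lower, against 15% and 17.7%. Leaving out 1 stage gave 2 to 7 higher (7 without OB, 6 without MS) and 0 to 3 lower (3 without ES or without EHF). Over all genes 41.2% and 32.2% were higher without OB and without MS, and 29.2% and 34.1% lower without ES and without EHF. Lost regions were 0 in H3K27ac and 0 in H3K4me1 both with Pre_PS and ES as the early stages and without peaks at the lowest fold. Gained H3K4me1 regions were 1 when peaks had to overlap a region by 50% or more. The overlap of the marks at LS was 98.8% in the strongest 50%.

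Among genes called higher, differences that changed sign were, in H3K27ac, Wnt11 (-6.58 bp per Mb with equal peak numbers, -0.918 with fold weighting, -0.938 with fold weighting but not the region near Axin2) and Axin2 (-34.3 with fold weighting, 53.7 once the region was left out), and in H3K4me1 Wnt11 (-0.280 with the strongest 50%). Of 14 settings, the H3K27ac calls held in 13 for Wnt8a and Dkk1, 12 for Wnt5a, 11 for Wnt5b and Axin2 and 9 for Wnt11, and the H3K4me1 calls in 10 for Wnt3a and 11 for Wnt11. These tallies include the settings that leave out 1 stage, which could not undo a call. A call already requires both late shares to lie above both early shares, so those settings are no check on it. Genes not called had differences of either sign across settings, except Wnt5b in H3K4me1, whose difference was positive throughout. Apart from the settings' own construction, the cause was not tested.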
